A study of Homo sapiens with 24 samples.

Results

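The ZBTB genes encode transcription factors that carry an amino-terminal BTB domain and, at the other end, zinc fingers that read DNA. They were taken here as every probe set on the Affymetrix HG-U133 Plus 2.0 microarray whose only gene symbol starts with ZBTB and a number. This rule found 107 probe sets of 48 genes, out of 41091 probe sets of 19775 genes with a single symbol. Of the 48, 41 are zinc finger protein genes, 1 is ZBTB8OS, which lies beside ZBTB8A and ZBTB8B and encodes no zinc fingers, and 6 are antisense or divergent RNAs. The family was picked because the signal of ZBTB9 was low at day 9 in AOX/NDI1 cells, so day 9 against day 0 in those cells is described here without a test.

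The study followed mitochondrial DNA (mtDNA) depletion in HEK293 cells, an embryonic kidney line, in which doxycycline switches on a dominant-negative form of the mtDNA polymerase (DN-POLG). DN-POLG cells were sampled uninduced (day 0) and after 3, 6 and 9 days of doxycycline. AOX/NDI1 cells carry the same inducible transgene and in addition the alternative oxidase AOX and the yeast NADH dehydrogenase NDI1, which together oxidize NADH and pass its electrons to oxygen around the complexes that mtDNA helps to encode, and were sampled at days 0 and 9. In 143B osteosarcoma cells, a rho0 line without mtDNA, which was made by long exposure to ethidium bromide, was set against its rho+ parent; each is a single line, so loss of mtDNA cannot be told apart from other differences between the lines. All medium held uridine and pyruvate, and each of the 8 groups has 3 cultures, 24 arrays in all; flasks were pooled for the cultures of days 6 and 9. In bulk RNA of this kind a smaller share of cells that express a gene and less RNA per cell cannot be told apart.

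The BTB domain pairs the proteins with each other and with corepressors such as NCOR1 and BCOR or with the ubiquitin ligase subunit CUL3, and most members are known as repressors. ZBTB33 (Kaiso), ZBTB4 and ZBTB38 bind methylated CpG, and loss of ZBTB24 causes an immunodeficiency with hypomethylated centromeric repeats. Others pair with MYC and p53 (ZBTB17, known as MIZ1, and ZBTB2, ZBTB5 and ZBTB7A), bind telomeres (ZBTB10, ZBTB40 and ZBTB48) or set cell fates in blood (ZBTB7B, ZBTB16, ZBTB46) and brain (ZBTB18, ZBTB20). ZBTB11 is known to act on nuclear genes of mitochondrial proteins. ZBTB9 is among the least described.

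RefSeq promoters were found for 35 of the 41 zinc finger genes, with 68 start sites between them. Over the 250 bases before the start, their median CpG count was 16.5, against 11 over all 35116 promoters of the table, and their median GC content was 62.8% against 58.0%. Of the 4 genes whose brightest probe sets fell at day 9 in DN-POLG cells, ZBTB9, ZBTB24 and ZBTB4 have 1 listed start site each. The 250 bases before it are shown because the brightest probe sets of these genes fell at the same day (build GRCh38.p14, gene strand, 5′ to 3′). The other probe sets of ZBTB24 rose. Capitals mark matches, on either strand, to the GC box GGGCGG, to the motif named CCAAT, or to the E-box CACGTG; neighbouring GC boxes can share a base.
ZBTB9, chr6:33454326-33454575, plus strand: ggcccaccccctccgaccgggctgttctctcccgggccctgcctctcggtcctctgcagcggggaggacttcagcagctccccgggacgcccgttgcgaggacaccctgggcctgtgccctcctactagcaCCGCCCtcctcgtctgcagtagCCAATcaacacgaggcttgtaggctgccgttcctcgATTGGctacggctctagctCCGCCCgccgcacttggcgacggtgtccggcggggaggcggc
ZBTB24, chr6:109483220-109483469, minus strand: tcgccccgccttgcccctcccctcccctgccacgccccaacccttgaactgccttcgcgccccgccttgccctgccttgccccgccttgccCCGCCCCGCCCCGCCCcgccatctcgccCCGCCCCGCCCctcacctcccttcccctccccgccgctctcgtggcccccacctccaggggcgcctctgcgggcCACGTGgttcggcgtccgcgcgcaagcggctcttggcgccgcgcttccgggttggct
ZBTB4, chr17:7484250-7484499, minus strand: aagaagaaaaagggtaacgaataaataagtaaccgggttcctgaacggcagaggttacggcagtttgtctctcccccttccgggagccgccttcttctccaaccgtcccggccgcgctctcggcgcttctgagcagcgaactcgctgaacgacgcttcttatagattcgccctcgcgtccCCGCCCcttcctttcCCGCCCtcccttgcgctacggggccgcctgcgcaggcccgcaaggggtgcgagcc

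All of them are rich in CpG, with 23 in ZBTB9, 30 in ZBTB24 and 27 in ZBTB4, and GC boxes are the one motif that all hold. A GC box is found in 57.4% of the ZBTB promoters and in 42.6% of all promoters. ZBTB9 has a pair of CCAAT boxes in opposite orientation, 97 and 61 bases before the start (38.2% of ZBTB promoters and 32.0% of all hold this motif), and ZBTB24 has 1 E-box 57 bases before it (10.3% and 6.34%). ZBTB14, the other gene whose brightest probe set fell, has 3 listed start sites, with 8, 38 and 27 CpG. The core of the palindrome that ZBTB33 binds when methylated (CTCGCGAG) was in 0 of the 68 ZBTB promoters and in 0.874% of all, and its unmethylated site (TCCTGCNA) in 7.35% and 3.74%. The other motifs searched were TGACGTCA (2.94% and 1.65%), TGATGCAA (2.94% and 0.772%), CCGGAAGT (5.88% and 3.42%), GCGCATGC (2.94% and 2.63%) and TATAAA (8.82% and 10.7%). These are letters in a window, and no binding was measured on the arrays.

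The arrays give 1 signal per probe set on a linear scale, made by the MAS5 method and scaled to a trimmed mean of about 500 signal units per array. Each gene is read by its brightest probe set, differences are in log2 signal, and a gene is said to have risen or fallen only where limma gave an adjusted p below 0.05 over all probe sets tested. A signal filter (57.2 in HEK293, 83.3 in 143B, as the geometric mean over the arrays of the line) left 38 ZBTB genes for HEK293 and 35 for 143B. Of the genes below it, ZBTB32, ZBTB7C and the 6 RNAs stayed under it in both lines, ZBTB22 and ZBTB42 in HEK293, and ZBTB6, ZBTB7B, ZBTB8B, ZBTB12 and ZBTB16 in 143B.

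POLG, whose transgene doxycycline induces, read 280 to 421 at day 0 and 2834 to 4739 at day 9 in DN-POLG cells. Its probe set was chosen for the largest rise between these 2 groups, so the rise there is not a separate check. In AOX/NDI1 cells POLG read 197 to 274 at day 0 and 4035, 2468 and 447 at day 9. The library labelled AOX/NDI1 day 9 replicate 3 thus stood apart in POLG. It did not in the mtDNA gene COX2, at 17194 against 17166.5 and 12675 in replicates 1 and 2. At day 0 in these cells COX2 read 33823 to 37608. DN-POLG day 6 replicate 1 stood apart in the ratio of 3′ to 5′ ACTB probe sets, a sign of RNA quality, with 8.92 against 1.05 and 1.27, and without it the count of ZBTB genes called at day 6 was the same. In 143B this ratio was 10.4 to 17.1 in rho+ and 5.53 to 8.12 in rho0, with no overlap, and rho0 replicate 3 deviated the most from its group (an SD of 0.583 in log2 signal, against 0.304 to 0.362 for the other 143B arrays). Of 7 markers of HEK293, LHX1 and NEFM were under the filter there, and all 8 markers of 143B passed in that line, although 6 of these also passed in HEK293. By median signal, CDH2 of the HEK293 list was higher in 143B (8016 against 2355). TIMP1 of the 143B list was higher in HEK293 (4938 against 3631). The other markers that passed in their own line were higher there.

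By their brightest probe sets, ZBTB9, ZBTB4, ZBTB14 and ZBTB24 fell in DN-POLG cells by day 9, and no ZBTB gene rose. These are 4 of the 38 tested, or 10.5%, while 6.4% of all 12085 genes fell, 1.3% rose and 7.7% changed in either direction. The other probe sets of ZBTB24 rose (2.21 and 0.92), so that gene has no single direction. At an unadjusted p below 0.05 the count was 6, or 15.8%, where 20.3% of all genes lay. A log2 difference of at least 1 downward was seen for 8, or 21.1%, where 6.62% of all genes lay. At day 6, 0 of 38 passed limma (6 at an unadjusted p below 0.05, where 15.3% of all genes lay), with 1.21% called over all genes (1% lower and 0.207% higher), and at day 3 the count was 0 (0 unadjusted, against 2.37% of all genes), with 0% called. The median log2 difference over the ZBTB genes was 0.05 at day 3, -0.17 at day 6 and -0.24 at day 9, against 0.06, -0.01 and 0.01 over all genes. At day 9, 24 of the 38 lay below 0, as did 49.5% of all genes. The day 9 arrays were all under the day 0 arrays for 9 ZBTB genes (14.3% of all genes) and all above them for 0 (9.16%). At day 6 this held for 5 downward (ZBTB8B, ZBTB9, ZBTB14, ZBTB37 and ZBTB46; 7.95% of all genes) and for 1 upward, ZBTB33 (4.03%), at 7684, 5348 and 6507 (0.43, adjusted p = 0.225).

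**Figure D1:**
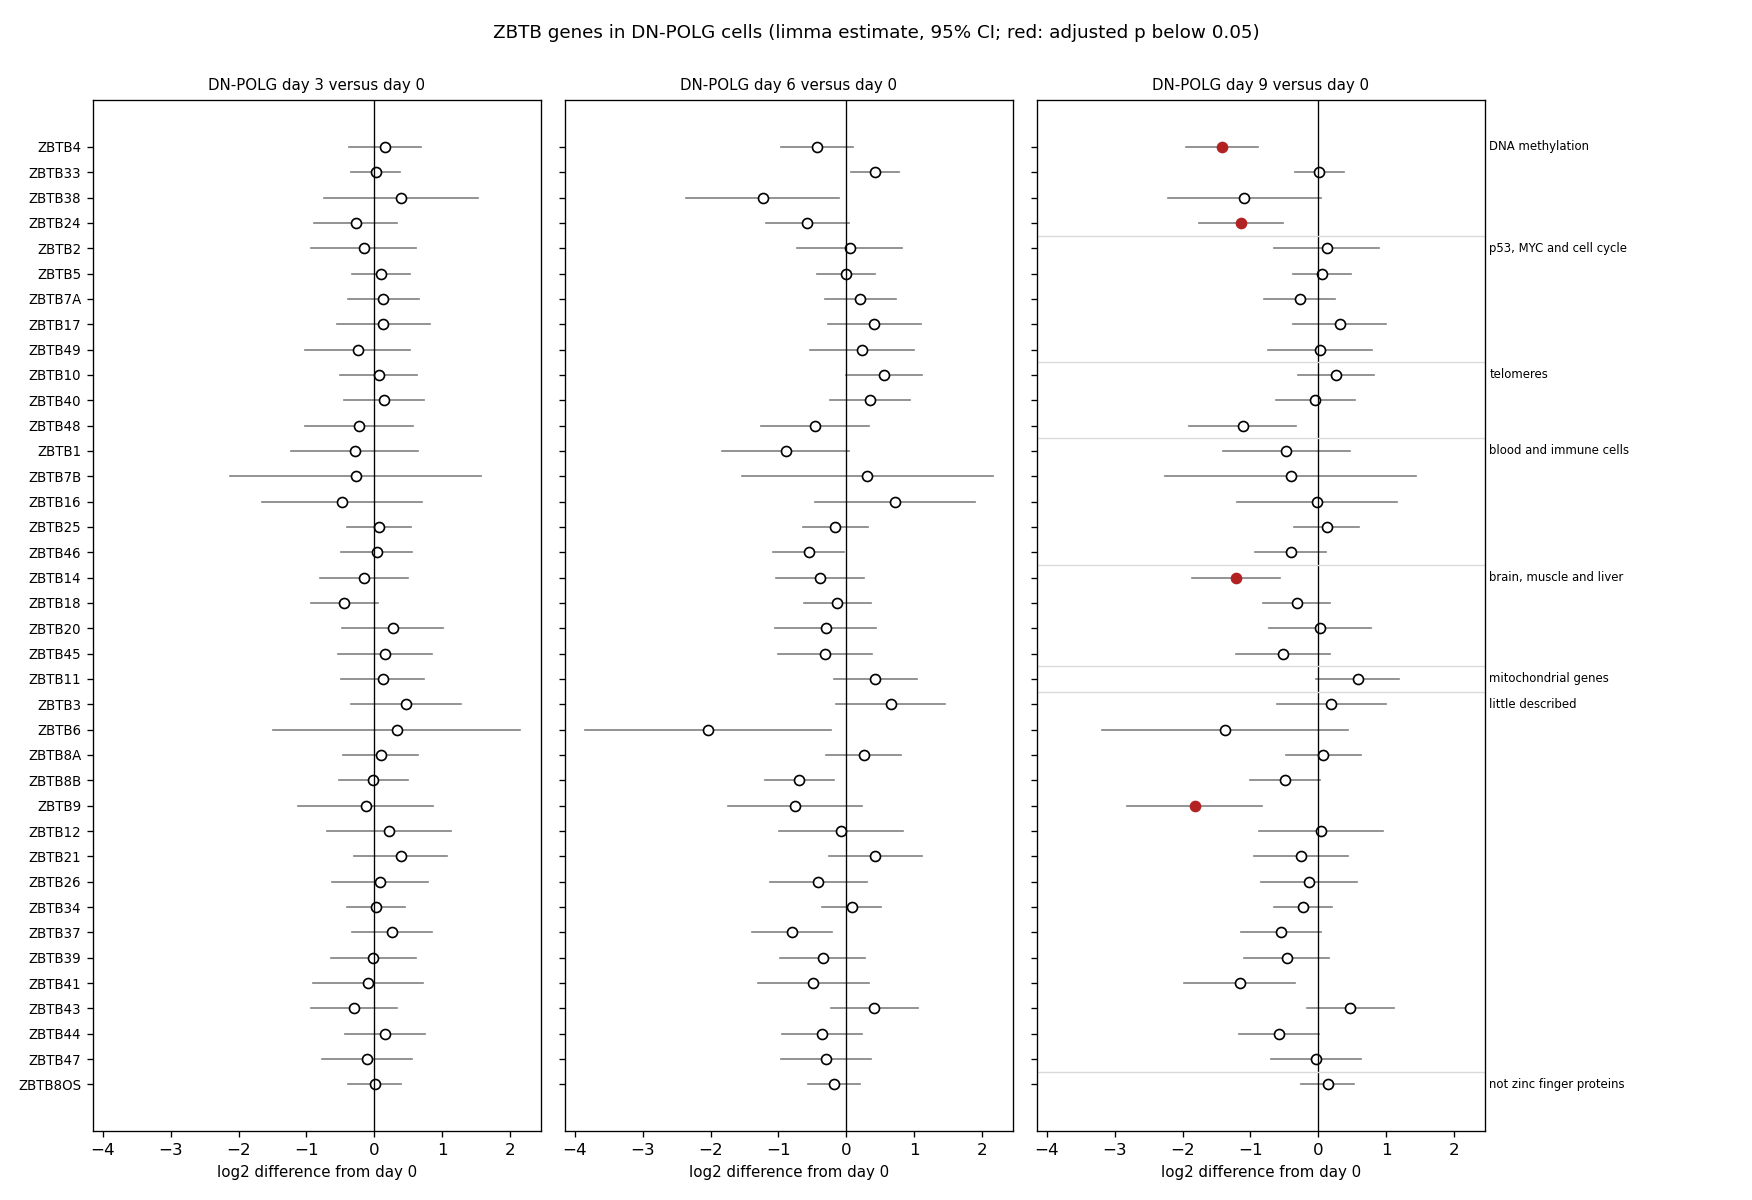
The log2 difference of each of 38 ZBTB genes from day 0 after 3, 6 and 9 days of doxycycline (points, with bars for the 95% confidence interval of limma), grouped by role. Red points at day 9 mark ZBTB4, ZBTB24, ZBTB14 and ZBTB9, all below 0, and no point is red at day 3 or 6. Each gene is read by its brightest probe set, and the other probe sets of ZBTB24 rose at day 9.

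Of the genes tied to DNA methylation, ZBTB4, which binds methylated CpG and is known to repress CDKN1A, gave 925, 860.4 and 883 signal units at day 0. It read 1148, 825 and 1036 at day 3, 996, 457 and 620.1 at day 6, and 337, 345 and 317 at day 9. The day 9 arrays lay close together and under every array of the earlier days, while the day 6 arrays lay far apart. The mean signal went from 889 ± 32.8 to 333 ± 14.5 (SD, n = 3 cultures), a log2 fold change of -1.42 (SE 0.25, adjusted p = 0.00238, limma). Its other probe set went the same way, from 304, 276 and 232 to 115, 93.3 and 56.4 (log2 fold change -1.67, adjusted p = 0.00851). Both probe sets are of kinds (_s_at and _x_at) that can also read other transcripts, and no unique probe set of ZBTB4 was tested.

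ZBTB24, the gene of the immunodeficiency, read 549, 863 and 1358 at day 0 on its brightest probe set, 205340_at, and 412, 381 and 383 at day 9. All day 9 arrays were lower than all day 0 arrays, though the day 0 arrays lay far apart (log2 fold change -1.14, SE 0.29, adjusted p = 0.0220). It missed the threshold when day 9 replicate 2, day 9 replicate 3 or day 0 replicate 3 was omitted and in 3 other settings, with adjusted p up to 0.0863. Its other probe sets went the opposite way. Probe set 1554036_at gave 328, 100.3 and 166 at day 0 and 823, 773 and 843 at day 9 (log2 fold change 2.21, SE 0.45, adjusted p = 0.00598), and 1554037_a_at gave 194, 175 and 124 and then 325, 308 and 285 (0.92, SE 0.21, adjusted p = 0.0121). On both the groups stood apart as well, so ZBTB24 as a gene has no single direction here and only its probe sets do. Averaged over the 3 probe sets, it would be higher at day 9 by 0.66 (adjusted p = 0.0442). At day 6 the 3 probe sets already differed in sign, with -0.57 (adjusted p = 0.346), 1.81 (0.0573) and 0.79 (0.0730), and none passed. Which part of the transcript each probe set covers is not given in the tables used here.

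**Figure D2:**
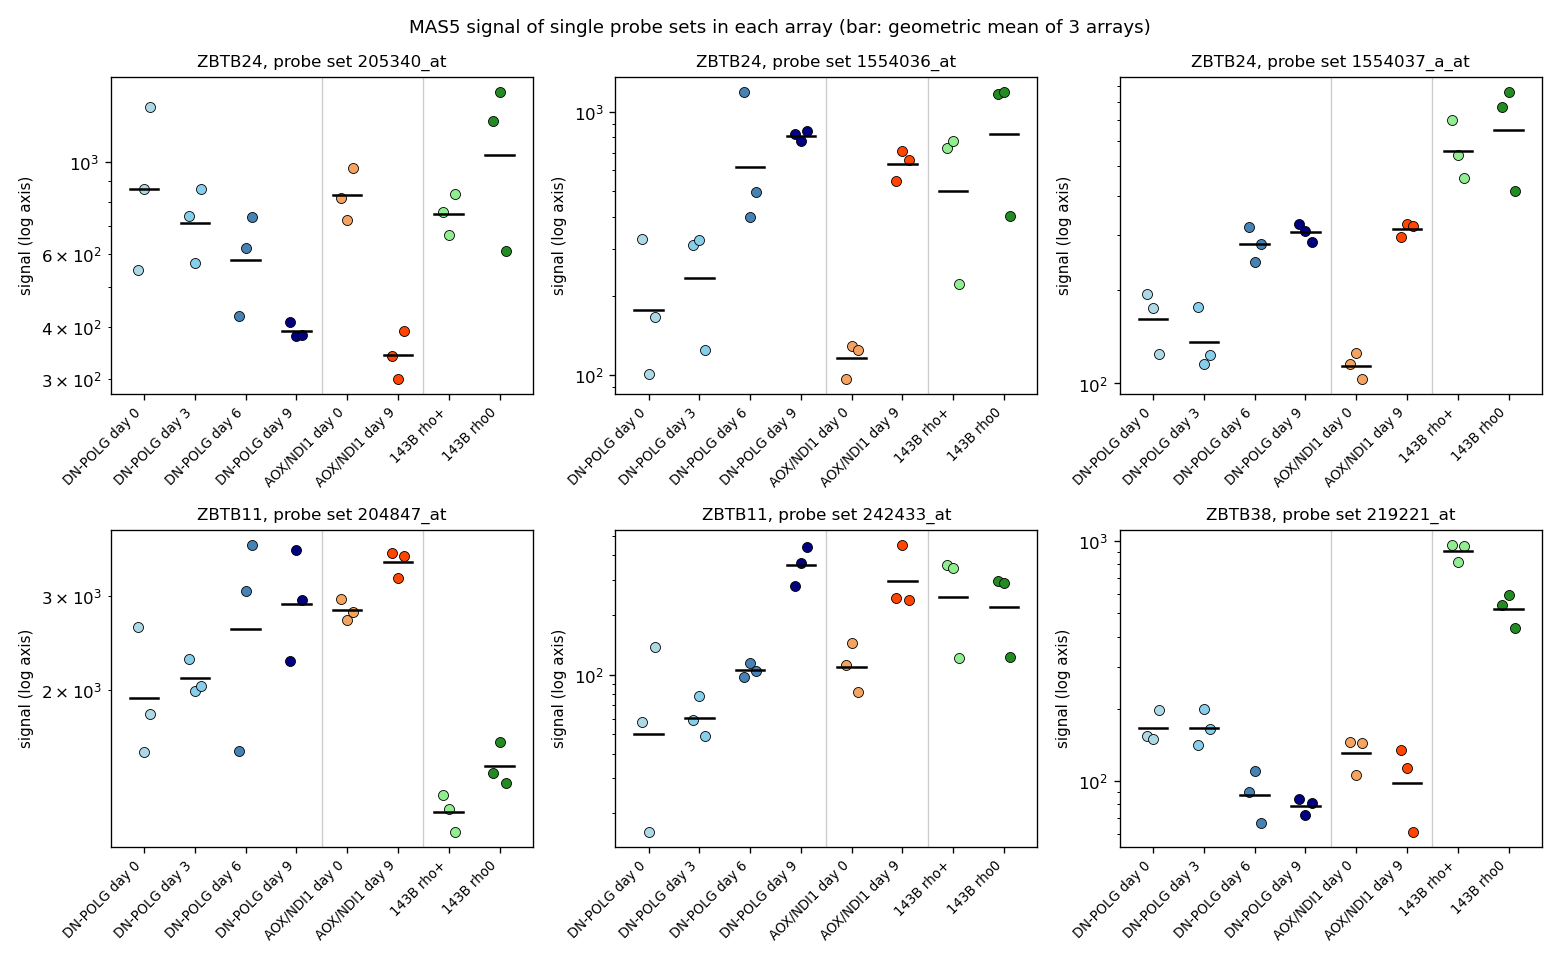
Signal (log axis) in each array of the 3 probe sets of ZBTB24, the 2 of ZBTB11 that passed the filter and 1 of ZBTB38, in 8 groups of 3 arrays, with the geometric mean as a bar. For ZBTB24, 205340_at was 381 to 412 at day 9 in DN-POLG cells, under all day 0 arrays, while 1554036_at was 773 to 843, above all of them.

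ZBTB38, the third methyl-CpG binding member, did not pass on its brightest probe set, which gave 266, 140.1 and 849 at day 0 and 142, 167 and 138 at day 9 (log2 fold change -1.09, SE 0.53, adjusted p = 0.253). The day 0 arrays spread widely, and 2 of the 3 day 9 arrays fell inside their range. A dimmer probe set, 219221_at, fell from 155, 149.7 and 197 to 84.1, 72.5 and 80.7 (-1.07, SE 0.28, adjusted p = 0.0241), and the groups did not overlap. That call was lost in 5 of 17 other settings, with adjusted p up to 0.0833. ZBTB33 gave 5258, 4535 and 4634 at day 0 and 4513, 5025 and 5050.2 at day 9, and the groups overlapped (0.02, 95% confidence interval -0.34 to 0.37, adjusted p = 0.972). The estimate for ZBTB33 turned to -0.05 under quantile normalization and is too close to 0 to give a direction.

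Among the members with unclear targets, ZBTB9 fell the furthest in log2 signal. Its arrays read 247, 305 and 295 at day 0, 235, 251 and 290.3 at day 3, 134, 174 and 197 at day 6, and 106, 97.3 and 48.6 at day 9. Day 3 overlapped day 0, and every day 6 and day 9 array was under every array of days 0 and 3. The difference was -0.13 at day 3 and -0.76 at day 6 (adjusted p = 0.452), neither of which passed, and -1.82 at day 9 (SE 0.47, adjusted p = 0.0232), where the mean was 84.1 ± 31 against 282 ± 31 (SD, n = 3). It missed the threshold when day 9 replicate 3, day 0 replicate 2 or day 0 replicate 3 was omitted and when no signal filter was used, with adjusted p up to 0.120. ZBTB9 has 1 probe set on the array. The fit and the signal filter used all HEK293 arrays, among them the AOX/NDI1 day 9 arrays that led to the choice of the family. In a fit of the DN-POLG arrays alone, with the same filter, ZBTB9 was still called lower.

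ZBTB14 (ZF5), first described as a repressor of MYC, gave 264, 203 and 251 at day 0, 199, 196 and 153 at day 6, and 108, 77.6 and 130.1 at day 9. The day 9 arrays were under all others (-1.21, SE 0.31, adjusted p = 0.0219). Its second probe set had a difference of -1.57 that did not pass (adjusted p = 0.0965). The call on the first was lost in 6 of 17 other settings, with adjusted p up to 0.102. These were arrays set to one median, no signal filter, and replicate 1 or 2 of day 9 or replicate 1 or 3 of day 0 left out. Both probe sets are _s_at, a kind that can also read other transcripts, and no unique probe set of ZBTB14 was tested.

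**Figure D3:**
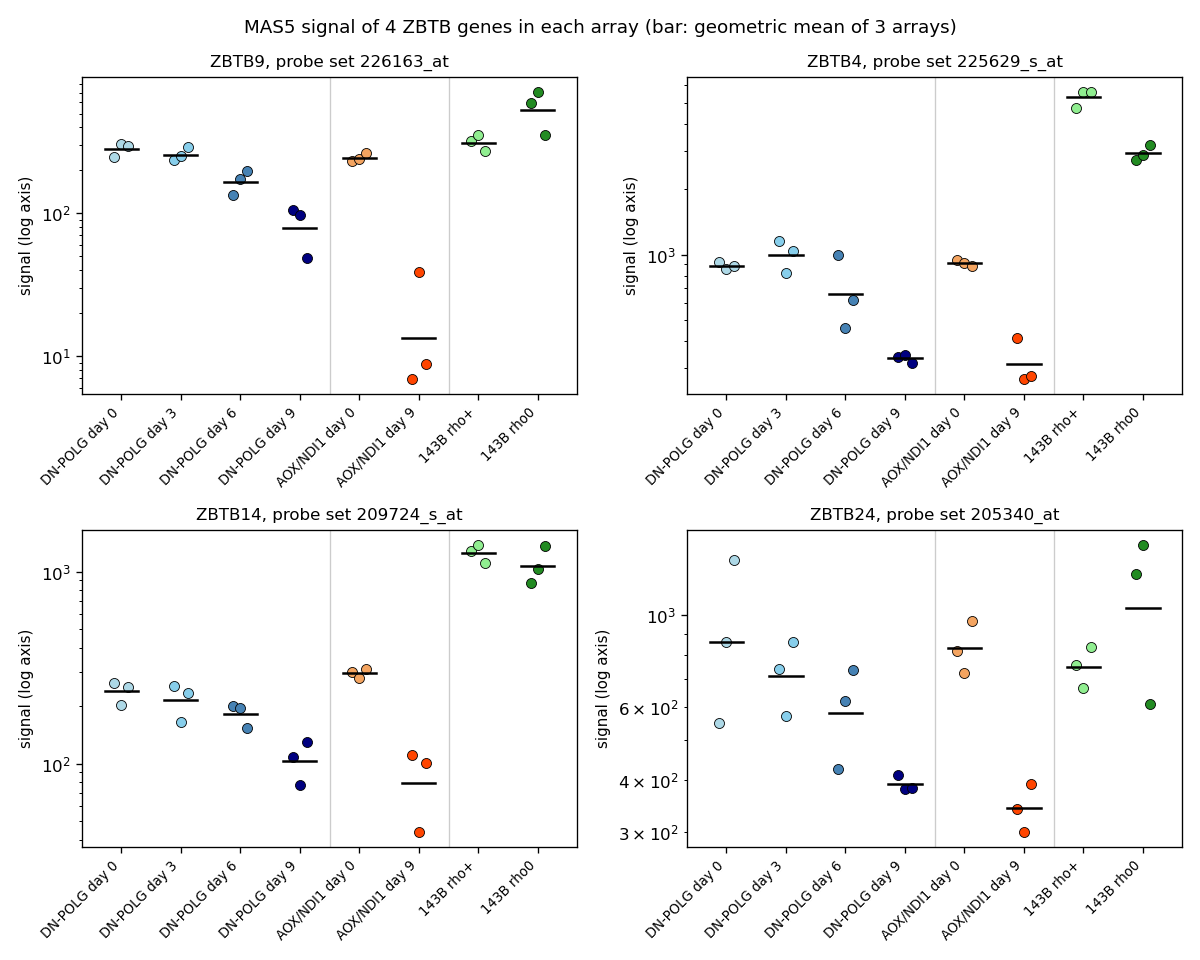
Signal (log axis) of the brightest probe sets of ZBTB9, ZBTB4, ZBTB14 and ZBTB24 in each array of the 8 groups, with the geometric mean of 3 arrays as a bar. The DN-POLG day 9 arrays of each gene lie under the day 0 arrays, from 48.6 to 106 against 247 to 305 for ZBTB9, and in AOX/NDI1 cells ZBTB9 was at 6.87 to 39.1 on day 9.

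The members that act with MYC and p53 did not pass at any day. ZBTB17 gave 577, 1070.0 and 359 at day 0 and 842, 715 and 708 at day 9, inside the day 0 range (0.31, adjusted p = 0.652, and -0.06 without 1 array of day 0). ZBTB7A, which silences fetal globin, gave 776, 602 and 883 and then 435, 662 and 805 (-0.28, 95% confidence interval -0.80 to 0.25, adjusted p = 0.586). All 3 of its tested probe sets lay below 0 at day 9, and none was called. The lowest, 219186_at, read 212, 230 and 195 and then 129, 105 and 126, with no overlap (-0.83). ZBTB2, ZBTB5 and ZBTB49 lay between 0.02 and 0.12 at day 9. Of the telomere-binding members, ZBTB48 (TZAP) gave 324, 699 and 555 at day 0 and 192, 299.6 and 215 at day 9, with no overlap, and missed the threshold (-1.12, SE 0.37, adjusted p = 0.0813). For ZBTB40 the brightest probe set was at -0.04, but 1559728_at rose from 77.5, 49.4 and 28.6 to 144, 132.5 and 186 (1.67, adjusted p = 0.0184), a call lost in 4 of 17 other settings. For ZBTB10 the brightest was at 0.26, but 236105_at fell from 606, 739.9 and 226 to 244, 205 and 185 (-1.15, adjusted p = 0.0470), a call that was lost with the replicate number as a block (adjusted p = 0.0573) and held in 5 of 17 other settings.

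ZBTB11, the member tied to mitochondrial proteins, gave 2627, 1531 and 1802 at day 0 and 2263, 3647 and 2947 at day 9 on its brightest probe set, which overlapped (0.58, SE 0.29, adjusted p = 0.259). Its dimmer probe set 242433_at rose from 57.5, 16 and 137 to 279.5, 367 and 441, so that all day 9 arrays were above all day 0 arrays (2.83, SE 0.53, adjusted p = 0.00354). It was called in all 17 other settings, but 1 day 0 array, and 1 more nearly, lay below the filter, so the size is uncertain. ZBTB1, needed for lymphocyte development and for the induction of ASNS, gave 856, 663 and 1745.5 and then 824, 746 and 604 (-0.47, adjusted p = 0.610). Of the remaining members, ZBTB41 read 1429.7, 1180.0 and 1225 at day 0 and 415, 859 and 521 at day 9 (-1.16, SE 0.38, adjusted p = 0.0790), with no overlap. ZBTB6 read 298, 245 and 284 at day 0 and 70.3, 156 and 108 at day 9, with no overlap. It did not pass (-1.38, SE 0.85, adjusted p = 0.390). The estimate of its spread included DN-POLG day 6 replicate 1, which read 7.71 on ZBTB6. Without that array, a setting chosen after seeing the data, ZBTB6 was called lower at day 9. The others lay between -0.58 (ZBTB44) and 0.47 (ZBTB43). ZBTB44 had 1 dimmer probe set that fell, 225845_at (-1.21, adjusted p = 0.0190), a call lost in 6 of 18 other settings.

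Over all 70 ZBTB probe sets tested, 8 fell and 4 rose at day 9 (17.1%, where 8.38% of all probe sets were called, 6.07% lower and 2.31% higher). The 4 that rose were 2 of ZBTB24 and 1 each of ZBTB11 and ZBTB40, none the brightest of its gene. Of 19 genes with more than 1 probe set tested, 9 had probe sets on both sides of 0 at day 9. This count was 10 at day 3, where no gene was called, and 9 at day 6. Some of the 9 at day 9 had a value close to 0 on 1 side, such as ZBTB33 at 0.02. The share over all genes was not worked out. Called probe sets that are not the brightest of their gene, 219186_at of ZBTB7A, and ZBTB6, ZBTB41, ZBTB44 and ZBTB48 were named after their values were seen.

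In AOX/NDI1 cells, ZBTB9 gave 233, 242 and 264 signal units at day 0 and 6.87, 39.1 and 8.76 at day 9, the values that led to the choice of the family. The log2 difference was -4.21, or -3.91 without day 9 replicate 3, the library with little POLG, and lay between -4.99 and -3.73 as each array was left out. All day 9 signals were under the filter, so the size is uncertain. At day 9, ZBTB9 in DN-POLG cells read 48.6 to 106, above all AOX/NDI1 arrays, while at day 0 the models overlapped.

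A log2 difference of at least 1 between day 9 and day 0 was seen downward for 9 ZBTB genes in AOX/NDI1 cells and upward for 0, where 9.9% and 1.94% of all genes lay. In DN-POLG cells it was seen downward for 8 (6.62% of all genes) and upward for 0 (1.81%). Those 8, ZBTB4, ZBTB6, ZBTB9, ZBTB14, ZBTB24, ZBTB38, ZBTB41 and ZBTB48, are all among the 9, and the 9th is ZBTB45, at -1.16 in AOX/NDI1 and -0.52 in DN-POLG cells. ZBTB4 was at -1.55 in AOX/NDI1 cells, with 941, 917 and 886 at day 0 and 412, 267 and 277 at day 9, and ZBTB14 at -1.91, with 301, 278 and 309.6 and then 111, 43.9 and 101. ZBTB24 split by probe set here too, with -1.28 on 205340_at and 2.45 and 1.46 on the others. ZBTB11 was at 0.30, and 1.43 on 242433_at. The groups did not overlap for 22 lower and 4 higher ZBTB genes, where 29.6% and 24.6% of all genes lay. Without replicate 3 of day 9, the same 9 genes were lower by at least 1 and ZBTB7B was higher by 1.497. The median over the ZBTB genes was -0.39, against -0.04 over all genes. Since the family was chosen from this comparison, these values were not tested, nor was the difference between the models.

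**Figure D4:**
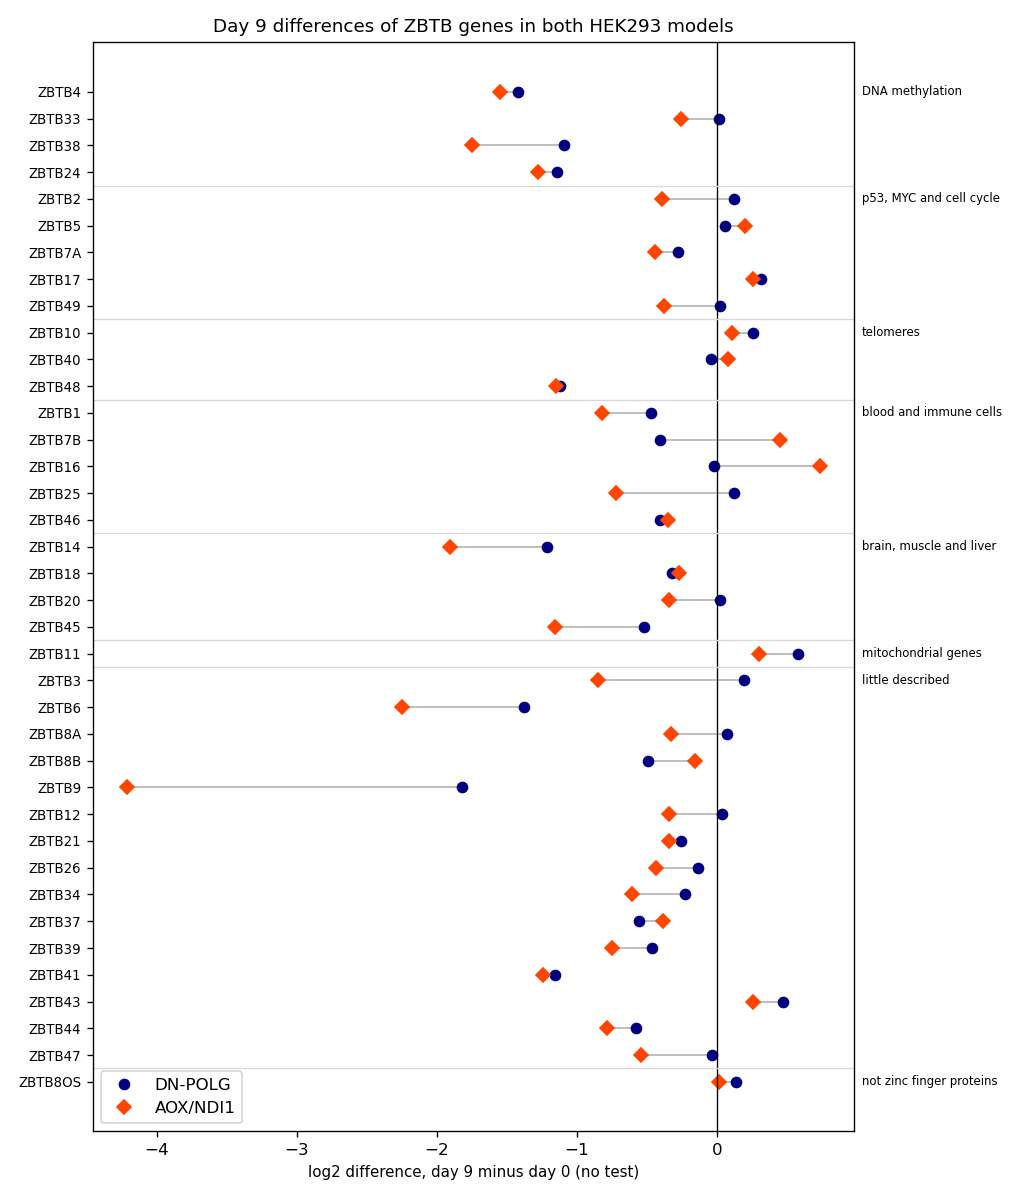
The log2 difference between day 9 and day 0 of each of 38 ZBTB genes in DN-POLG cells (circles) and AOX/NDI1 cells (diamonds), with no test. ZBTB9 has the widest gap, at -1.82 and -4.21, while ZBTB4 (-1.42 and -1.55), ZBTB24 (-1.14 and -1.28) and ZBTB48 (-1.12 and -1.15) lie close together. The family was chosen by the drop of ZBTB9 in AOX/NDI1 cells, and its day 9 signals there were under the filter.

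In 143B cells, no ZBTB gene differed between rho0 and rho+ by its brightest probe set (0 of 35 by limma, where 8.13% of all genes were called, 5.48% lower and 2.66% higher, and 9 at an unadjusted p below 0.05, or 25.7%, where 28% of all genes lay). ZBTB4 came near, with 4706, 5593 and 5614 in rho+ and 2717, 2876.5 and 3178 in rho0 (-0.86, SE 0.23, adjusted p = 0.0566), and the arrays stood apart. It passed in 6 of 15 other settings, among them quantile normalization. ZBTB5, a repressor of CDKN1A, gave 426, 374 and 356 in rho+ and 186, 172 and 246 in rho0 (-0.95, adjusted p = 0.0538). ZBTB9 was higher in all rho0 arrays, at 593, 713 and 355 against 319, 354.2 and 273, but did not pass (0.76, SE 0.31, adjusted p = 0.157), the opposite sign to the change in the HEK293 models. ZBTB24 was at 0.47 (adjusted p = 0.422), with 0.72 and 0.23 on its other probe sets, so all 3 lay above 0. ZBTB11 was at 0.29 (adjusted p = 0.448), ZBTB33 at 0.50 (0.234) and ZBTB14 at -0.23 (0.601). The rho0 arrays were all under the rho+ arrays for 11 ZBTB genes (17.5% of all genes) and all above them for 8 (16.9%).

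Over the 78 ZBTB probe sets tested in 143B, 1 passed, where 7.65% of all did, 5.41% lower and 2.24% higher. This was 205092_x_at of ZBTB1, at 420.4, 174 and 575 in rho+ and 122, 70.7 and 34.5 in rho0 (-2.38, SE 0.56, adjusted p = 0.0407), and the call was lost in 8 of 13 other settings. Without replicate 3 of rho0, which read lower than its group on ZBTB1, ZBTB9 and ZBTB24 and higher on ZBTB46, 10 ZBTB genes passed, among them ZBTB4, ZBTB5, ZBTB9 and ZBTB24. The part of the ACTB ratio, which was higher in every rho+ array, was not tested. The median over the ZBTB genes was -0.0030, against -0.01 over all genes.

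**Figure D5:**
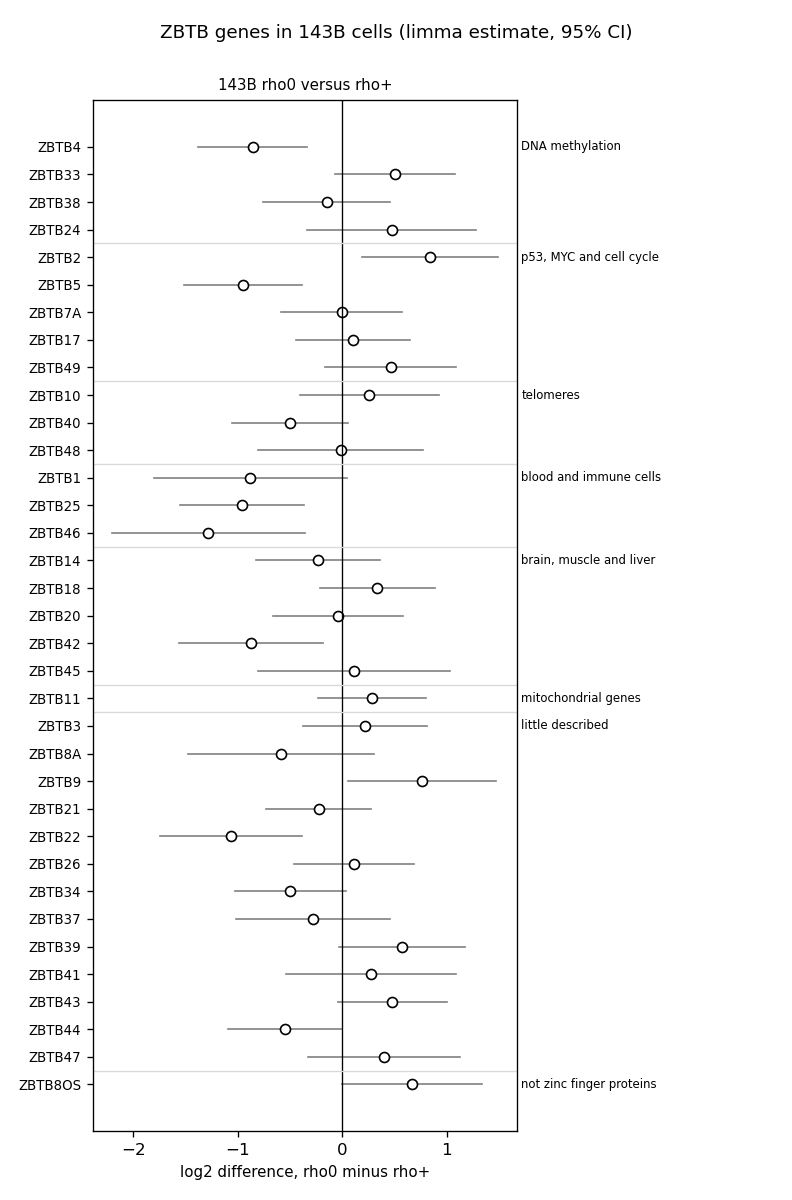
The log2 difference of each of 35 ZBTB genes between rho0 and rho+ 143B cells (points, with bars for the 95% confidence interval of limma), grouped by role. No gene passed; the point of ZBTB46 lies furthest below 0 at -1.28 (adjusted p = 0.0886) and that of ZBTB2 furthest above it at 0.84 (0.104).

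Some members were read at very different levels in the parent lines, given here as a description without a test. The 3′ to 5′ ACTB ratio differed as well, at 10.4 to 17.1 in rho+ 143B and 1.08 to 1.75 in DN-POLG cells at day 0. Its part was not tested. ZBTB38 gave 4180.2 to 5165 in rho+ 143B and 140.1 to 849 in DN-POLG cells at day 0, a log2 difference of 3.92, and ZBTB4, ZBTB14 and ZBTB7A were higher in rho+ by 2.57, 2.40 and 2.45. ZBTB46 was higher in rho+ too, by 3.18, as were ZBTB42 (2.76) and ZBTB22 (2.59), which were under the HEK293 filter. ZBTB17 was the reverse, at 125 to 171 in rho+ and 359 to 1070.0 in DN-POLG cells at day 0. So were ZBTB21 (-2.47) and ZBTB8OS (-2.39), and ZBTB12 (-3.25), ZBTB6 (-2.79) and ZBTB16 (-2.31), which were under the 143B filter. Further members differed as well, and the share over all genes was not worked out. ZBTB9 differed little, with 273 to 354.2 and 247 to 305.

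Other BTB zinc finger genes, partners and targets were read as 3 lists. Of 6 tested BTB zinc finger genes under other symbols, such as BCL6 and MYNN, and of 8 tested partners that bind BTB domains, such as BCOR and HDAC3, 0 passed at any day in DN-POLG cells by limma. At day 9, 2 and 0 of them lay at an unadjusted p below 0.05, where 20.3% of all genes lay. In 143B 0 of 5 and 0 of 8 passed, where 8.13% of all genes did (1 and 0 unadjusted, where 28% lay). Of 9 tested partners and targets, 1 rose and 2 fell at day 9, where 1.3% of all genes rose and 6.4% fell. ASNS, the asparagine synthetase that ZBTB1 is known to induce, went from 8491 ± 2529 to 26817 ± 7744 (SD, n = 3; log2 fold change 1.66, adjusted p = 0.00119). MAX, the partner of MYC, fell by 0.66 (adjusted p = 0.0371), and CDKN2B, a cell cycle inhibitor and known target of ZBTB17, fell by 0.96 (adjusted p = 0.0214). At day 6 ASNS was higher by 1.5 (adjusted p = 0.0160), CDKN2B fell by 1.21 (0.0293) and DNMT3B, a DNA methyltransferase, fell by 0.93 (0.0309). Over all genes 0.207% rose and 1% fell at day 6. At an unadjusted p below 0.05 lay 6 of these 9 at day 6 (15.3% of all genes) and 4 at day 9 (20.3%). In 143B CDKN1A, the p53 target that several members repress, fell by 1.74 in rho0 (adjusted p = 0.0471), 1 of 8 tested, where 5.48% of all genes fell. The median of the partners and targets at day 9 was -0.40, against 0.01 over all genes.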

How the data were processed

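RNA of 18 HEK293 and 6 143B cultures was hybridized to Affymetrix HG-U133 Plus 2.0 microarrays. The deposited values are signal intensities on a linear scale that the authors made with MAS5 in Expression Console 1.2 after scanning with GeneChip Command Console 3.2, per the submitters' processing notes. The trimmed mean was 500 on every array, so no further normalization was applied, and log2 was taken with nothing added. The number of arrays limits the precision.

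Probe sets were named through the platform annotation, and all 48 ZBTB genes matched RefSeq by Entrez ID, with 0 symbols changed. The test took single-symbol probe sets whose mean log2 signal reached the median over probe sets, that is, 23132 in HEK293 and 22786 in 143B. The model was limma 3.58.1 in R 4.3.3 (lmFit and eBayes, two-sided, Benjamini-Hochberg over the probe sets tested, threshold 0.05), with the 18 HEK293 arrays in one fit of 6 group means and the 6 143B arrays in another. The code was tested on simulated data.

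The members, roles and lists were chosen with earlier results of these data known. By rule, values were given for ZBTB9, for members called and for 8 others (ZBTB1, ZBTB4, ZBTB7A, ZBTB11, ZBTB17, ZBTB24, ZBTB33 and ZBTB38). A gene was read by the probe set with the highest mean log2 signal over 24 arrays. Cultures of a group come from 1 line, so p-values measure the spread between cultures. The study counts a culture round, grown from 1 starter through all days, as 1 biological replicate. Equal replicate numbers in HEK293 may thus be pairs, and no such statement covers 143B. The reported p-values use no pairing in either line. The replicate number as a block was an alternative setting in both. Deviations of same-numbered arrays from their group means correlated at 0.32 to 0.51 for days 3 and 0, at 0.17 to 0.21 for days 6 and 0, at -0.32 to 0.04 for days 9 and 0, and at -0.18 to 0.07 for 143B. Alternatives were 10 other settings, each array left out in turn and, for DN-POLG, its arrays alone.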

Additional observations from a re-analysis of the deposited data

How the results depend on the processing

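Of the 4 ZBTB genes called at day 9 in DN-POLG cells, ZBTB4 was called in all 18 other settings in which it was tested (adjusted p from limma 9.87e-05 to 0.0172). The count was 4 with quantile normalization, with log2 of signal plus 16, in the ANOVA of the methods and with the replicate number as a block, which changed no call of a gene by its brightest probe set in any comparison; of the dimmer probe sets, 236105_at of ZBTB10 lost its call at day 9 with the block (adjusted p = 0.0573). It was 2 with arrays set to one median (without ZBTB14 and ZBTB24), 1 with no signal filter (ZBTB4) and 2 with the stricter filter (ZBTB4 and ZBTB24). With array weights it was 10 (9 lower and 1 higher), and as a mean over probe sets 6 (4 lower and 2 higher). In DN-POLG arrays alone it was 3, all lower. Without _s_at and _x_at probe sets it was 3, with ZBTB9 and ZBTB24 lower and ZBTB40 higher. With arrays left out it was 1 to 4, all lower. The 1 came without day 0 replicate 3, and the 2 without day 9 replicate 2 or 3. A pair of further settings was chosen after seeing the data. The count was 5 without DN-POLG day 6 replicate 1, where ZBTB6 was added, and 4 without AOX/NDI1 day 9 replicate 3. At day 3 the count was 0 in all settings, and at day 6 it was 0 in all but array weights, where it was 2 (ZBTB8B and ZBTB37).

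In 143B the count of 0 became 1 with quantile normalization and with log2 of signal plus 16 (ZBTB4), 2 with the stricter filter, 2 as a mean over probe sets, 13 with array weights, and 0 to 10 with arrays left out, the 10 without rho0 replicate 3. Arrays set to one median moved the median difference of all 143B probe sets from -0.05 to 0.26, so signs near 0 there are relative to that shift. The count of AOX/NDI1 differences of at least 1 was 8 to 10 in all settings.

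Signs turned, apart from left-out arrays, for values that did not pass: at day 3 for ZBTB33 (-0.030 with one median, -0.16 as a mean over probe sets, -0.084 with array weights) and, with array weights, ZBTB24 (0.32), ZBTB17 (-0.043) and ZBTB11 (-0.15); at day 6 for ZBTB24 (0.68 as a mean, 0.14 with weights) and ZBTB7A (-0.00097 with weights); at day 9 for ZBTB33 (-0.049 with quantile normalization, -0.28 as a mean, -0.078 with weights); and in 143B for ZBTB38 (0.16 with one median, 0.0046 with weights) and ZBTB7A (0.30 and 0.060). ZBTB24 at day 9, which passed at -1.14, was 0.66 as a mean over probe sets, since 2 of its 3 probe sets rose. The cause of the others was not tested.
With arrays left out, signs also turned at day 3 for ZBTB17 (-0.24 to 0.54), ZBTB38 (-0.19 to 1.11), ZBTB33 (-0.022 to 0.084), ZBTB7A (-0.026 to 0.25), ZBTB11 (-0.049 to 0.34), ZBTB24 (-0.60 to 0.053) and ZBTB1 (-0.58 to 0.11), at day 9 for ZBTB33 (-0.024 to 0.083) and ZBTB17 (-0.063 to 0.72), and in 143B for ZBTB38 (-0.34 to 0.0067) and ZBTB7A (-0.13 to 0.15), none of which passed.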
